A study of Mus musculus with 6 samples.

Results

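The 10 genes described here encode the core and accessory subunits of Polycomb repressive complex 2 (PRC2): Ezh1, Ezh2, Eed, Suz12, Jarid2, Aebp2, Mtf2, Phf1, Phf19 and Epop, which the annotation of these data lists under its older symbol E130012A19Rik. They were chosen by name, and each was matched to 1 Ensembl gene among the 37620 genes counted. All 10 passed the low-count filter and were among the 17489 genes tested. RNA was measured in 6 libraries, 2 per group. The Phc1-KO libraries are labelled Phc1-/-, derived from J1 mouse embryonic stem cells, where Phc1 encodes a Polyhomeotic subunit of Polycomb repressive complex 1. NPC are wild-type neural progenitor cells obtained from J1 cells by differentiation in culture, and ESC are wild-type J1 embryonic stem cells. The stem cells were grown with LIF and serum on inactivated mouse fibroblast feeders, which were removed before use. The labels do not give the deleted part of Phc1 or the number of clones.

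PRC2 adds methyl groups to lysine 27 of histone H3, a mark of repressed developmental genes. EZH2 or its paralog EZH1 carries the catalytic SET domain, EED binds the methylated mark and stimulates the enzyme, and SUZ12 is the scaffold that both need. The core is joined by 1 of 2 sets of accessory proteins. PRC2.1 holds a Polycomb-like protein (MTF2, PHF1 or PHF19) and can hold EPOP, while PRC2.2 holds JARID2 and AEBP2. In general EZH2 is high in dividing cells, and EZH1 is relatively more used in differentiated, non-dividing tissue.

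Promoter windows were read from RefSeq for 9 of the 10 genes, which gave 13 windows; the remaining gene, E130012A19Rik, was not matched. Each window spans 250 bases before to 50 after a start site, on GRCm38.p6 and on the gene's own strand. They were searched on both strands for an E2F-type motif in 4 spellings, TTTCCCGC, TTTGGCGC, TTTCGCGC and TTTGCCGC, because E2F factors control genes of DNA replication and the cell cycle list is set beside the PRC2 genes further on. A match was found in 3 of the 13 windows (23.1%), those of Ezh2, Suz12 and Phf19, against 744 of all 32851 windows of the same length (2.26%) and 6 of 19 windows of the cell cycle list (31.6%). The member windows held a median of 23 CpG dinucleotides and the cell cycle windows 24, against 7 over all windows. Each spelling holds a CpG, so the share over all windows is not a like background. Windows with a similar CpG number were not compared. Shown are the windows of the catalytic pair, whose ratio is described next, and the 2 others with a match, which is in capitals. They lie at chr11:101226414-101226713 (Ezh1, minus strand), chr6:47594981-47595280 (Ezh2, minus strand), chr11:79992856-79993155 (Suz12, plus strand) and chr2:34913927-34914226 (Phf19, minus strand, where the capitals are TTTCCCGC read on the other strand).
Ezh1: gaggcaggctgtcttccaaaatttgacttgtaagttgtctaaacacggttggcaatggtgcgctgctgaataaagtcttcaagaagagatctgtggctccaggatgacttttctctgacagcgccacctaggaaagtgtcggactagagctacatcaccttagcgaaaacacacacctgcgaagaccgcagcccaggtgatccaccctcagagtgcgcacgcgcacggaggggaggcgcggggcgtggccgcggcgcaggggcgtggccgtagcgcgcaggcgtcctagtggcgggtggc
Ezh2: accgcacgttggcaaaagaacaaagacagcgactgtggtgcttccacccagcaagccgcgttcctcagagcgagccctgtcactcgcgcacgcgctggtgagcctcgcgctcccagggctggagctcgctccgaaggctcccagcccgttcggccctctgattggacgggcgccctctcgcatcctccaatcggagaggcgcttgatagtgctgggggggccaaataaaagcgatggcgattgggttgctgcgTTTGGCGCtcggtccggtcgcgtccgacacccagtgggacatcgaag
Suz12: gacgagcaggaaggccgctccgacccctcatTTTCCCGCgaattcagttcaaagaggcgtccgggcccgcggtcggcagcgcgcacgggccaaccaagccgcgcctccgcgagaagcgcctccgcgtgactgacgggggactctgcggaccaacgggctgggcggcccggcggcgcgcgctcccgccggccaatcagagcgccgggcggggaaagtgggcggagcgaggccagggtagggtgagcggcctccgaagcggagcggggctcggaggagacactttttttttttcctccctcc
Phf19: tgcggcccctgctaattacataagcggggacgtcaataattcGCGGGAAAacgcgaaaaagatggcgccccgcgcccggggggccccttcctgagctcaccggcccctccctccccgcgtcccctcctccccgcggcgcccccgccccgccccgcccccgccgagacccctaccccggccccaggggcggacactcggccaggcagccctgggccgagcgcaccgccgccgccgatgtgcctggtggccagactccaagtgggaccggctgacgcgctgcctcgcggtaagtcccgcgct
A match describes these letters only, and no binding was measured.

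Reads assigned to genes numbered 15226214 to 21893821 per library. Levels are given as CPM, read counts relative to library size, after TMM scaling puts the libraries on 1 scale. The ESC pair differed beyond counting noise by a coefficient of variation of 1.98%, against 18.1% for the Phc1-KO pair and 27.5% for the NPC pair. Reads that fell in no gene also differed within the Phc1-KO pair. Per read assigned to a gene they were 1.08 and 0.66 in Phc1-KO, 1.03 and 1.09 in NPC, and 0.84 and 0.85 in ESC. Their part in the spread was not tested. The spread used in the tests was shared over the groups. The labels call the libraries biological replicates. Phc1 itself was at 326.3 and 267.5 CPM in Phc1-KO libraries 1 and 2, at 40.8 and 34.6 CPM in NPC, and at 459.7 and 460.5 CPM in ESC, a log2 difference of -0.63 between Phc1-KO and ESC (SE 0.15, edgeR adjusted p = 0.0412). Since the labels do not say which part was deleted, this level does not check the knockout, and Phc1-KO is used throughout as the label of these libraries. The cell type entry of the Phc1-KO libraries reads NPC, while the study's title calls the cells ESC. The summed level of 9 pluripotency markers was 2536 and 3071 CPM in Phc1-KO, 110.3 and 82.9 CPM in NPC, and 2606 and 2613 CPM in ESC. Most of the NPC sum was Sox2, at 103.2 and 75.5 CPM, while Pou5f1 was at 1.12 and 1.49 CPM and Utf1 at 0 in both NPC libraries. In Phc1-KO against ESC 1 of the 9, Fgf4, was called higher and 1, Nanog, lower. Over all genes 4.91% were called higher and 5.75% lower there. The summed level of the 8 neural progenitor markers found in the tables was 943 and 731 CPM in Phc1-KO, 5074 and 3058 CPM in NPC, and 614 and 614 CPM in ESC. In these sums the Phc1-KO libraries were nearer to ESC than to NPC, but much of the neural sum was Vim, at 743 and 549 CPM in Phc1-KO, 1701 and 1433 CPM in NPC, and 408 and 398 CPM in ESC. Pax6, a neural transcription factor, overlapped between Phc1-KO and NPC, with 21.5 and 20.8 CPM in Phc1-KO, 20.98 and 16.9 CPM in NPC, and 4.44 and 4.68 CPM in ESC. It was higher in Phc1-KO than in ESC by 2.21 on the log2 scale (SE 0.20, edgeR adjusted p = 0.00327), and its difference from NPC was 0.15 (95% interval -0.29 to 0.60). Of the 8 neural markers 1, Pax6, was called higher in Phc1-KO than in ESC, where 4.91% of all genes were higher. Called lower in Phc1-KO than in NPC were 7 of the 8, where 32.7% of all genes were lower.

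In the comparison of NPC with ESC, the libraries labelled NPC also held much fibroblast marker RNA: 9 such markers summed to 7199 and 11391 CPM in NPC, against 399 and 389 CPM in ESC. Their part in the PRC2 values was not tested. Of the 10 members, 7 were lower in NPC and 1 was higher, by edgeR's quasi-likelihood test with Benjamini-Hochberg adjustment over all genes and a threshold of 0.05. Over all genes tested, 61.3% were called in this comparison, 30.9% lower and 30.4% higher. At an unadjusted p under 0.05 there were 8 members, against 65.7% of all genes. The members' median log2 fold change was -1.33, against -0.01 over all genes. Called lower were all 4 core genes, Jarid2, Mtf2 and E130012A19Rik, the called higher gene was Phf19, and Phf1 and Aebp2 did not pass.

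Phc1-KO set against ESC addresses whether PRC2 subunit RNA differs where a PRC1 gene is labelled as deleted. Of the 10 members 2 passed, Ezh1 lower and Jarid2 higher, against a background of 10.7% of all genes. The background was 5.75% lower and 4.91% higher, and 5 members had an unadjusted p under 0.05, against 29.3% of all genes. The members' median log2 fold change was -0.10, against 0.00 over all genes. Both calls were lost when any 1 of the 4 Phc1-KO and ESC libraries was left out, as given with each gene. Over all genes, 858 were higher and 1006 lower in Phc1-KO, against 683 higher and 1223 lower with total-count scaling.

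Because of the conflicting cell type entry, Phc1-KO was also compared with NPC. Higher in Phc1-KO were 7 of the 10 members and lower was 1, Phf19, against a background of 64.9% of genes called, 32.3% higher and 32.7% lower. At an unadjusted p under 0.05 there were 8 members, against 68.7% of all genes. The members' median log2 fold change was 0.98, against 0.00 over all genes. The comparisons share libraries in pairs, so their values are not independent of each other.

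**Figure D1:**
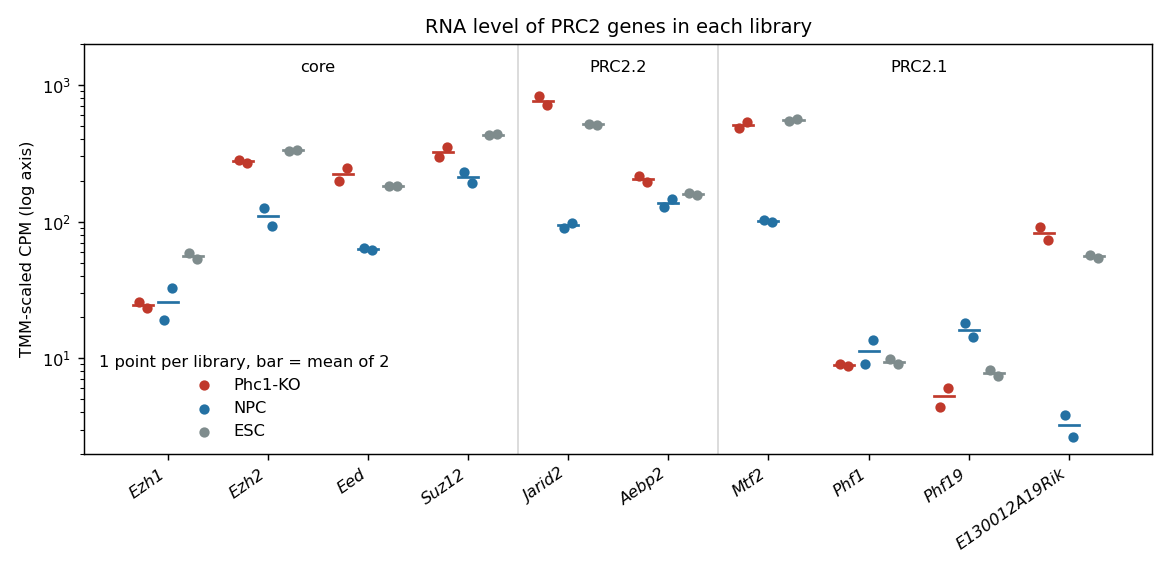
RNA level of each PRC2 gene in TMM-scaled CPM on a log axis, with 1 point per library and a bar at the mean of the 2 libraries of a group. Jarid2, Mtf2 and E130012A19Rik lie far lower in NPC than in Phc1-KO and ESC, and Ezh1 is lower in both Phc1-KO and NPC than in ESC.

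**Figure D2:**
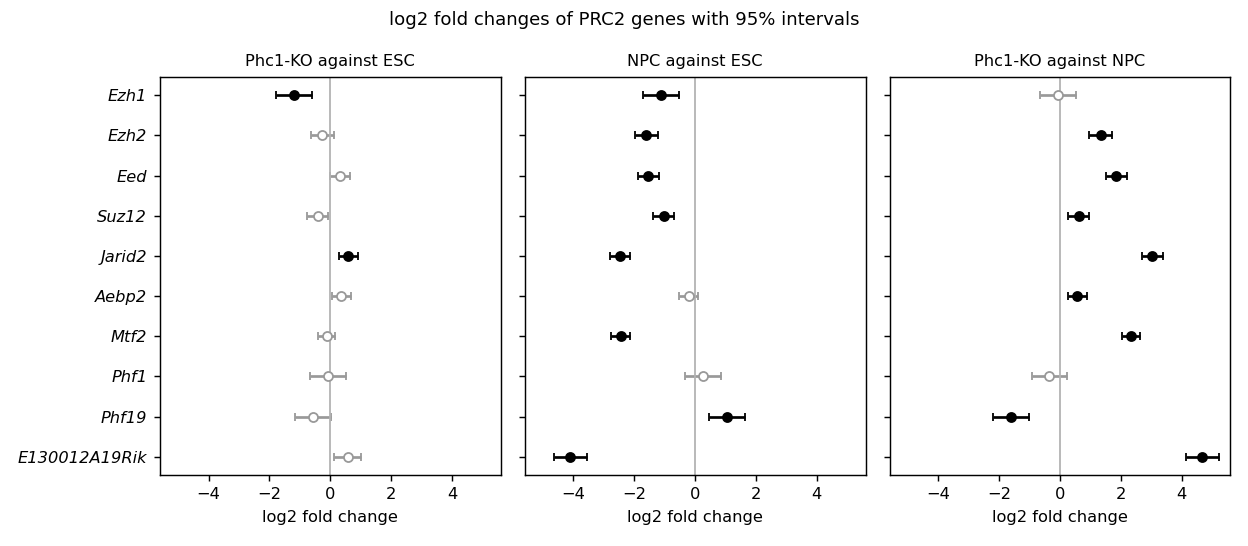
Log2 fold change of each PRC2 gene in the 3 comparisons with its 95% interval. Filled black points passed the test and open grey points did not; 2 members passed in Phc1-KO against ESC, and 8 in each of the other comparisons.

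Ezh1, the catalytic paralog with the weaker methyltransferase activity (ENSMUSG00000006920; mm9 chromosome 11, 101052429 to 101087777, minus strand), was at 25.7 and 23.3 CPM in Phc1-KO, at 19.01 and 32.4 CPM in NPC, and at 58.7 and 53.4 CPM in ESC. Every Phc1-KO and NPC library was below both ESC libraries, and the NPC pair lay 1.70-fold apart. Relative to ESC, Ezh1 fell in Phc1-KO by 1.19 on the log2 scale (SE 0.25, edgeR adjusted p = 0.0309, n = 2 libraries per group). That call was lost without Phc1-KO 1 or 2 (adjusted p = 0.100 and 0.170), without ESC 1 or 2 (adjusted p = 0.221 and 0.168) and with the ESC pair counted as 1 library (adjusted p = 0.172), while the fall stayed between 1.12 and 1.28 under all 15 alternatives. In NPC it fell by 1.12 relative to ESC (SE 0.25, adjusted p = 0.00684). Without NPC 1 or NPC 2 that value was -0.79 or -1.55. Between Phc1-KO and NPC its log2 difference was -0.07 (95% interval -0.66 to 0.52), and their libraries overlapped. Its sign turned without NPC 2 (0.37) or without Phc1-KO 2 (0.017).

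Ezh2, the main methyltransferase of dividing cells (ENSMUSG00000029687; chromosome 6, 47480273 to 47545340, minus strand), was at 282.2 and 270.2 CPM in Phc1-KO, at 125.3 and 93.4 CPM in NPC, and at 330.2 and 334.5 CPM in ESC. The groups did not overlap, with NPC lowest. In NPC it fell by 1.60 relative to ESC (SE 0.16, adjusted p = 0.000218). The log2 difference of Phc1-KO from ESC was -0.27 (95% interval -0.64 to 0.11) and did not pass (adjusted p = 0.305). Relative to NPC, Ezh2 was higher in Phc1-KO by 1.34 (SE 0.16, adjusted p = 0.000414).

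The ratio of Ezh1 to Ezh2 was taken within each library from counts per kb of merged exons, so scaling between libraries does not enter it. It was 0.0759 and 0.0717 in Phc1-KO, 0.126 and 0.289 in NPC, and 0.148 and 0.133 in ESC. Ezh2 RNA thus exceeded Ezh1 RNA in every library. The Phc1-KO ratio lay below that of all other libraries and was 0.526 times the ESC ratio. In NPC 1 library was below both ESC libraries and the other above both, so no direction can be given for NPC against ESC. With 2 libraries against 2 an exact two-sided permutation test cannot give a p below 0.333, which is the value for Phc1-KO against ESC; NPC against ESC gave a p of 1. Of the pair, Ezh1 passed the test in Phc1-KO against ESC and Ezh2 did not.

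**Figure D3:**
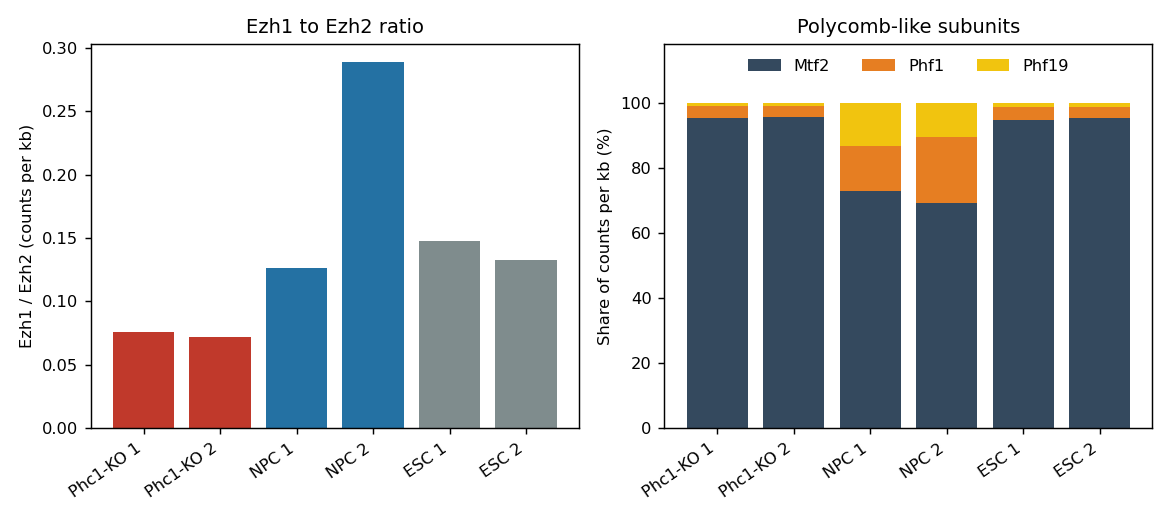
Left, the ratio of Ezh1 to Ezh2 in counts per kb of merged exons in each library; right, the share of Mtf2, Phf1 and Phf19 in their summed counts per kb. The ratio is lowest in the 2 Phc1-KO libraries and differs between the NPC libraries (0.126 and 0.289), and the Mtf2 share is 72.9% and 69.0% in NPC against 94.8% and 95.4% in ESC.

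Eed, the reader of the methyl mark (ENSMUSG00000030619; chromosome 7, 97103166 to 97129493, minus strand), was at 199.3 and 249.0 CPM in Phc1-KO, at 63.6 and 61.5 CPM in NPC, and at 181.5 and 180.9 CPM in ESC. It fell in NPC by 1.53 relative to ESC (SE 0.15, adjusted p = 0.000167), with NPC libraries far below the rest. For Phc1-KO against ESC its log2 difference was 0.31 (95% interval -0.03 to 0.64, adjusted p = 0.199). Suz12, the scaffold (ENSMUSG00000017548; chromosome 11, 79806608 to 79847625, plus strand), was at 295.0 and 354.3 CPM in Phc1-KO, at 230.0 and 193.4 CPM in NPC, and at 428.9 and 438.5 CPM in ESC. Its groups did not overlap. It fell in NPC by 1.03 relative to ESC (SE 0.15, adjusted p = 0.000984). The log2 difference of Phc1-KO from ESC was -0.42 (95% interval -0.77 to -0.07), which did not pass (adjusted p = 0.115), although it passed when only those 2 groups were fitted (adjusted p = 0.0467). Against NPC, Phc1-KO was higher by 1.84 for Eed (SE 0.15, adjusted p = 7.68e-05) and by 0.62 for Suz12 (SE 0.15, adjusted p = 0.00870).

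In these libraries the proportion of Suz12 to Eed RNA differed between the groups, though neither gene passed in Phc1-KO against ESC. The ratio of Suz12 to Eed in counts per kb was 0.664 and 0.638 in Phc1-KO, 1.62 and 1.41 in NPC, and 1.06 and 1.09 in ESC, with no overlap between groups. The summed level of Ezh1 and Ezh2 relative to Eed was 0.545 and 0.416 in Phc1-KO, 0.794 and 0.701 in NPC, and 0.747 and 0.750 in ESC. In this measure NPC lay on both sides of ESC and Phc1-KO was below both. Each separation of 2 libraries from 2 has an exact permutation p of 0.333, the smallest possible. These are RNA ratios, and no protein was measured.

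Jarid2, which helps bring PRC2.2 to chromatin (ENSMUSG00000038518; chromosome 13, 44824843 to 45017012, plus strand), was at 829.8 and 710.5 CPM in Phc1-KO, at 89.8 and 97.7 CPM in NPC, and at 517.9 and 511.2 CPM in ESC. The order Phc1-KO above ESC above NPC held for every library. Jarid2 fell in NPC by 2.46 relative to ESC (SE 0.14, adjusted p = 2.45e-05). It rose in Phc1-KO by 0.58 relative to ESC (SE 0.13, adjusted p = 0.0376). The call in Phc1-KO was lost without Phc1-KO 1 or 2 (adjusted p = 0.0584 and 0.0653), without ESC 1 or 2 (adjusted p = 0.334 and 0.344), with the ESC pair as 1 library (adjusted p = 0.324) and with total-count scaling (adjusted p = 0.0648). Its log2 difference stayed between 0.47 and 0.69 under all 15 alternatives. Against NPC, Phc1-KO was higher by 3.04 (SE 0.14, adjusted p = 1.27e-05).

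Aebp2, a zinc-finger subunit of PRC2.2 (ENSMUSG00000030232; chromosome 6, 140570970 to 140626993, plus strand), was at 214.0 and 194.7 CPM in Phc1-KO, at 127.9 and 146.7 CPM in NPC, and at 161.2 and 157.3 CPM in ESC. Among the members with high levels it differed least between NPC and ESC, with a log2 difference of -0.21 (95% interval -0.52 to 0.09, adjusted p = 0.187). Its difference in Phc1-KO from ESC was 0.36 (95% interval 0.06 to 0.66) and did not pass after adjustment (adjusted p = 0.118). Phc1-KO was higher than NPC by 0.57 (SE 0.13, adjusted p = 0.00650). The ratio of Jarid2 to Aebp2 in counts per kb was 3.49 and 3.29 in Phc1-KO, 0.632 and 0.6001 in NPC, and 2.89 and 2.93 in ESC. Aebp2 was thus the more abundant RNA of this pair in NPC, and Jarid2 in the other libraries.

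Mtf2, the Polycomb-like protein with most RNA here (ENSMUSG00000029267; chromosome 5, 108494693 to 108538023, plus strand), was at 480.9 and 535.1 CPM in Phc1-KO, at 103.2 and 99.0 CPM in NPC, and at 542.3 and 561.8 CPM in ESC. It fell in NPC by 2.45 relative to ESC (SE 0.13, adjusted p = 1.92e-05), close to Jarid2 in size. The difference of Phc1-KO from ESC was -0.12 (95% interval -0.40 to 0.17, adjusted p = 0.552). Phc1-KO was higher than NPC by 2.33 (SE 0.13, adjusted p = 2.12e-05).

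Phf19, another Polycomb-like protein, which binds histone H3 methylated at lysine 36 (ENSMUSG00000026873; chromosome 2, 34749277 to 34769546, minus strand), had low levels and moved the other way. It was at 4.399 and 6.095 CPM in Phc1-KO, at 17.95 and 14.35 CPM in NPC, and at 8.20 and 7.42 CPM in ESC. Phf19 was the member called higher in NPC, by 1.05 relative to ESC (SE 0.25, adjusted p = 0.00863). That call was lost without ESC 1 or 2 (adjusted p = 0.0562 and 0.0845) and with the ESC pair as 1 library (adjusted p = 0.0695). The difference of Phc1-KO from ESC was -0.57 (95% interval -1.17 to 0.02, adjusted p = 0.183). Relative to NPC it fell in Phc1-KO by 1.62 (SE 0.25, adjusted p = 0.00123). Between 84 and 273 reads per library lay behind these levels.

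Phf1, the third Polycomb-like gene (ENSMUSG00000024193; chromosome 17, 27070072 to 27074835, plus strand), was at 9.01 and 8.80 CPM in Phc1-KO, at 9.08 and 13.6 CPM in NPC, and at 9.87 and 9.003 CPM in ESC. It passed in none of the comparisons in this fit, and the NPC and ESC libraries overlapped. Its log2 difference was 0.26 in NPC (95% interval -0.32 to 0.85) and -0.08 in Phc1-KO (95% interval -0.67 to 0.50), each relative to ESC. For Phc1-KO against NPC it was -0.35 (95% interval -0.93 to 0.24). Without NPC 1 it passed as higher in NPC than in ESC (log2 difference 0.53, adjusted p = 0.0495), and without NPC 2 the difference was -0.05. Without NPC 1 it also passed as lower in Phc1-KO than in NPC (adjusted p = 0.0287).

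Within the Polycomb-like genes the make-up of the RNA pool differed in NPC. Mtf2 made up 95.2% and 95.5% of their summed counts per kb in Phc1-KO, 72.9% and 69.0% in NPC, and 94.8% and 95.4% in ESC. The share of Phf1 was 3.86% and 3.40% in Phc1-KO, 13.9% and 20.5% in NPC, and 3.74% and 3.31% in ESC. Phf19 held 0.910% and 1.14% in Phc1-KO, 13.2% and 10.5% in NPC, and 1.498% and 1.317% in ESC. Mtf2 remained the most abundant of them in each library. Both NPC libraries had a lower Mtf2 share than both ESC libraries, with an exact permutation p of 0.333, the smallest possible. In level, Mtf2 fell and Phf19 rose in NPC, and Phf1 did not pass.

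Epop (E130012A19Rik, ENSMUSG00000043439; chromosome 11, 97488707 to 97491030, minus strand) encodes a PRC2.1 subunit known from stem cells that links the complex to Elongin BC. It was at 91.9 and 73.9 CPM in Phc1-KO, at 3.81 and 2.66 CPM in NPC, and at 57.2 and 54.3 CPM in ESC. Of the 10 members it had the lowest log2 fold change in NPC relative to ESC, -4.10 (SE 0.23, adjusted p = 2.20e-05), with 58 and 41 reads in the NPC libraries. Both Phc1-KO libraries were above both ESC libraries, with a log2 difference of 0.57 (95% interval 0.13 to 1.01) that did not pass (adjusted p = 0.0955). It passed without NPC 1 or 2, when only Phc1-KO and ESC were fitted, and by DESeq2, and its adjusted p lay between 0.0372 and 0.481 over the 15 alternatives. Against NPC, Phc1-KO was higher by 4.68 (SE 0.23, adjusted p = 1.47e-05). The ratio of E130012A19Rik to Mtf2 in counts per kb was 0.433 and 0.313 in Phc1-KO, 0.0837 and 0.0609 in NPC, and 0.239 and 0.219 in ESC. This ratio was lowest in both NPC libraries and highest in both Phc1-KO libraries.

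Jarid2 and Aebp2 together made up 44.8% and 40.8% of the summed counts per kb of the 6 accessory genes in Phc1-KO, 45.5% and 48.6% in NPC, and 34.98% and 34.29% in ESC. This PRC2.2 share was above both ESC libraries in all the others. In Phc1-KO its main part was Jarid2, and in NPC it was Aebp2. The separation from ESC has an exact permutation p of 0.333 for each group, the smallest possible with 2 libraries against 2.

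By level per kb of merged exons, the order in Phc1-KO was Eed, Mtf2, Jarid2, Suz12, Ezh2, E130012A19Rik, Aebp2, Phf1, Ezh1 and Phf19, where Eed and Mtf2 overlapped. The order in NPC was Suz12, Eed, Mtf2, Ezh2, Aebp2, Jarid2, Phf1, Ezh1, Phf19 and E130012A19Rik. There Mtf2 overlapped Ezh2, Ezh2 overlapped Aebp2, Phf1 overlapped Ezh1 and Ezh1 overlapped Phf19. In ESC the order was Mtf2, Suz12, Eed, Ezh2, Jarid2, E130012A19Rik, Aebp2, Ezh1, Phf1 and Phf19, where only the neighbours Ezh2 and Jarid2 overlapped. Levels per kb ranged from 1.04 (Phf19) to 101.1 (Eed) CPM per kb in Phc1-KO, from 1.39 (E130012A19Rik) to 42.8 (Suz12) in NPC and from 1.55 (Phf19) to 104.9 (Mtf2) in ESC. The orders depend on the gene length used. Ezh2 has 6197 merged exon bases but 2652 in its longest transcript, while Eed has 2218 and 2065. By mean CPM without length scaling, Jarid2 was first in Phc1-KO, at 770.1 against 224.2 for Eed. Suz12 stayed first in NPC and Mtf2 in ESC. Merged exons of Ezh2, Suz12 and Mtf2 share 2.81%, 3.60% and 7.51% of their bases with a gene on the other strand (Gm17629, Gm16706 and Tmed5). Whether counting used the strand is not given in the sources used here, and reads from those stretches cannot be told apart if it did not.

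Of 8 further PRC2 partner genes listed, 7 were matched to 1 gene each and tested. In NPC 4 of these were lower and 1 was higher than in ESC, where 30.9% of all genes were lower and 30.4% higher. Only the count in either direction is near its background, 61.3% of all genes. Their median log2 fold change was -0.62, against -0.01 over all genes. The histone-binding subunits Rbbp4 and Rbbp7, which sit in several chromatin complexes, fell in NPC by 0.62 (SE 0.12, adjusted p = 0.00351) and 0.72 (SE 0.12, adjusted p = 0.00187). Tceb2, the Elongin B gene, fell by 0.98 (SE 0.17, adjusted p = 0.00234), and Tceb1, the Elongin C gene, had a difference of -0.44 that did not pass (adjusted p = 0.0680). Usp7, a deubiquitinase, fell by 1.47 (SE 0.14, adjusted p = 0.000167), and Lcor, whose locus also encodes the PRC2.1 subunit PALI1, rose by 0.59 (SE 0.17, adjusted p = 0.0188). Lcorl had a difference of 0.34 (adjusted p = 0.0624). In Phc1-KO against ESC 0 of the 7 passed by edgeR, against 10.7% of all genes. At an unadjusted p under 0.05 there were 3, against 29.3% of all genes. By DESeq2 and by limma-voom 0 passed, against 2540 and 1820 of all 17489 genes. Against NPC, 5 of the 7 were higher in Phc1-KO and 2, Lcor and Lcorl, lower, where 32.3% of all genes were higher and 32.7% lower.

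Cell cycle genes were also lower in NPC. Of 20 listed, 18 were lower in NPC than in ESC and 0 higher, against 30.9% of all genes lower and 30.4% higher. Their median log2 fold change was -1.501, against -0.01 over all genes, while the 4 core genes lay between -1.60 and -1.03. The same 18 had an unadjusted p under 0.05, and 18 passed by DESeq2 and by limma-voom, which called 10150 and 10571 of all 17489 genes. The 2 that did not pass by edgeR were Mki67, a proliferation marker, and E2f2. Their log2 differences were -0.41 (adjusted p = 0.0766) and -0.23 (adjusted p = 0.478). The 3 largest falls follow. Mcm2, a subunit of the replication helicase, fell by 2.39 (SE 0.21, adjusted p = 0.000122), Bub1, a spindle checkpoint kinase, by 2.13 (SE 0.16, adjusted p = 6.94e-05) and Mcm5, also of the helicase, by 2.08 (SE 0.24, adjusted p = 0.000373). In Phc1-KO against ESC 1 of the 20 was higher and 0 were lower, with a median of 0.09. Over all genes 4.91% were higher and 5.75% lower there, so the count of higher genes is near the background. The called gene was Ccne1, a cyclin of entry into replication, higher in Phc1-KO by 0.76 (SE 0.13, adjusted p = 0.0179). By DESeq2 3 of the 20 passed there and by limma-voom 1, against 2540 and 1820 of all 17489 genes. Against NPC, 18 of the 20 were higher in Phc1-KO, where 32.3% of all genes were higher. The part of the cell cycle genes in the PRC2 values was not tested. In bulk RNA a smaller share of cells of 1 kind and less RNA per cell cannot be told apart.

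**Figure D4:**
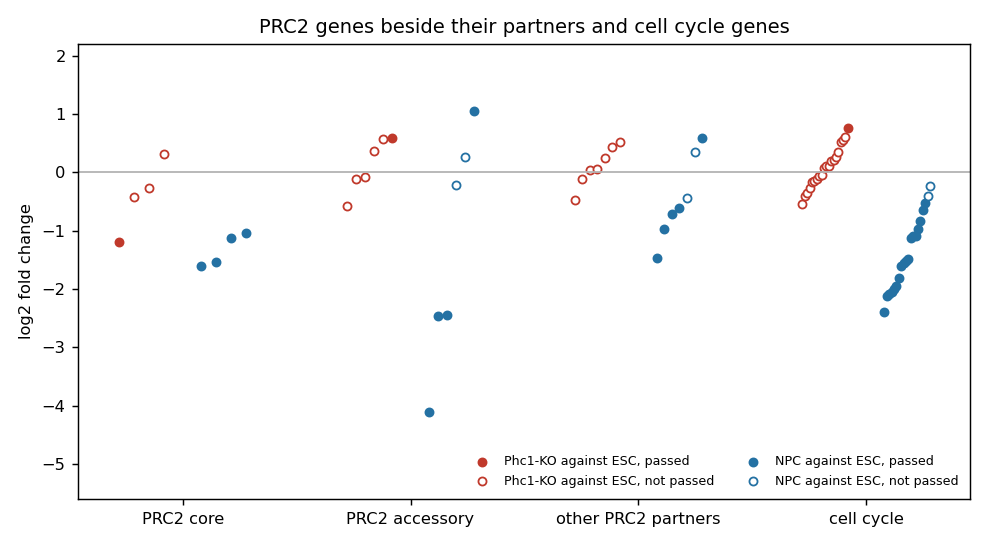
Log2 fold changes against ESC of the 4 core and 6 accessory PRC2 genes, 7 partner genes and 20 cell cycle genes, for Phc1-KO (red) and NPC (blue). Filled points passed the test; in NPC the core and most cell cycle genes lie below 0, and in Phc1-KO most points lie near 0 and are open.

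Markers of other cells also differed between the groups. The 9 fibroblast markers, genes that feeder cells would carry, summed to 808 and 654 CPM in Phc1-KO. The sums in ESC were 399 and 389 CPM, as given above, and none of the 9 was at 0 in any library. Postn alone was at 167.8 and 198.3 CPM in Phc1-KO, against 4.63 and 4.93 CPM in ESC. Col1a2, which did not pass there, was at 334.5 and 256.7 CPM in Phc1-KO, against 197.4 and 187.2 CPM in ESC. Col3a1 was lower, at 71.9 and 51.8 CPM in Phc1-KO against 73.4 and 76.3 CPM in ESC, and did not pass. By edgeR 8 of 9 were higher in NPC than in ESC, against 30.4% of all genes. In Phc1-KO 4 of 9, Dcn, Lum, Postn and Fap, were higher than in ESC, against 4.91% of all genes. The other 5 did not pass in Phc1-KO against ESC. The summed level of 7 macrophage markers was 23.2 and 17.4 CPM in Phc1-KO, 5.72 and 7.79 CPM in NPC, and 129.96 and 131.09 CPM in ESC. Most of the ESC sum was Lyz2, at 100.5 and 102.1 CPM in ESC and at 12.3 and 6.10 CPM in Phc1-KO. Of the 6 tested, 5 were lower in Phc1-KO than in ESC, against 5.75% of all genes, and 6 lower in NPC, against 30.9%. The tested marker that did not pass in Phc1-KO against ESC was Cd68 (edgeR adjusted p = 0.735). Emr1, Aif1 and Tyrobp were at 0 in 1 or both NPC libraries. The part of either list in the PRC2 values was not tested.

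Genes whose profile over the 6 libraries was most like that of Ezh2 were Mcm8, Dlgap5 and Stip1. Likeness was the root mean square distance of centred log2 levels among 11382 genes with a symbol and a mean of at least 4 CPM, and it was 0.0425 for Mcm8, 0.0538 for Dlgap5 and 0.0635 for Stip1. Mcm8, a helicase relative of the replication genes, was at 40.2 and 39.2 CPM in Phc1-KO, at 17.3 and 13.5 CPM in NPC, and at 49.8 and 46.2 CPM in ESC. Nearest to Ezh1 were Arap3, Cyr61 and Dnahc1, at distances of 0.112, 0.132 and 0.154. Cyr61, a secreted matrix protein, was at 74.7 and 66.1 CPM in Phc1-KO, at 69.2 and 113.4 CPM in NPC, and at 175.3 and 168.1 CPM in ESC. Of the NPC libraries, NPC 2 was the higher for Ezh1 and NPC 1 for Ezh2. The nearest genes were picked by likeness over these same 6 libraries. That they share this order with their member follows largely from the choice and is no separate result.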

How the data were processed

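RNA was measured in 6 mouse libraries, 2 each of Phc1-KO, NPC and ESC. Per the labels' protocols, total RNA was depleted of rRNA (Ribo-Zero Gold) and made into TruSeq libraries, and per the design text reads were single-end with 50 bases. The authors deposited unnormalized counts for each Ensembl gene; STAR, HTSeq and mm9 are named in the submitters' processing notes. Neither their versions nor HTSeq's annotation and strandedness are stated in the sources used. Each table ends in 5 rows that name no gene, which held 68.5% to 73.8% of its total and were left out.

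GENCODE M1, an mm9 annotation, named 37205 of 37620 genes and gave positions and merged exon lengths. Counts were tested with edgeR 4.0.16 in R 4.3.3 (quasi-likelihood F test, 1 term per group, all libraries in 1 fit with 3 residual degrees of freedom, TMM scaling, filterByExpr with a minimum count of 10 and total of 15). Benjamini-Hochberg adjustment ran over 17489 genes, with a threshold of 0.05. SE is the log2 fold change divided by the square root of F, and intervals are 95%. The function was tested on simulated counts with the same spread for every gene and group. That test does not cover the unequal spread of the pairs here. P values measure the spread between these libraries, which may in part be technical. Counts come from reads without molecular identifiers.

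Named were all members, Phc1, the listed partners, in the other lists all that passed if 5 or fewer and otherwise the 3 largest changes (marker lists are given by sums), and the 3 genes nearest to Ezh1 and to Ezh2 (pseudocount 0.5). Further listed genes are named where they limit the reading of a count or a sum. Members and lists were chosen with earlier results of these data known. Of the listed genes Sox1 and AU022751 were not matched to 1 gene. Alternatives were DESeq2 1.42.0, limma-voom (limma 3.58.1), other scalings and filters, a replicate block, fits of 2 groups, each library left out and the ESC pair as 1 library. Figures were drawn with matplotlib 3.10.9.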

Additional observations from a re-analysis of the deposited data

How the results depend on the processing

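Under 15 alternatives, 22 of the 30 member results (10 genes in 3 comparisons) kept their direction and their side of the threshold. The other 8 are named with their genes above (the replicate block is given in the next paragraph), and their causes were not tested. Reversed were 3 values, none of which had passed: Phf1 in NPC against ESC without NPC 2 (-0.051, and 0.53 at the other end of the leave-one-out range), and Ezh1 in Phc1-KO against NPC without NPC 2 (0.37) and without Phc1-KO 2 (0.017), with a lowest leave-one-out value of -0.40. Members called in Phc1-KO against ESC numbered 2 in the reported fit, 1 with total-count scaling, 4 when only these groups were fitted and 0 with the ESC pair as 1 library (edgeR; 2 had an unadjusted p under 0.05), and 0 to 3 with a library left out. All genes called there numbered 1864 as reported, 3899 when only these groups were fitted, 145 with the ESC pair as 1 library, and 92 to 3715 with a library left out: 1173 and 138 without Phc1-KO 1 or 2, 3715 and 3701 without NPC 1 or 2, and 112 and 92 without ESC 1 or 2. In NPC against ESC the reported fit called 7 members lower and 1 higher, where 61.3% of all genes were called. In Phc1-KO against NPC it called 7 higher and 1 lower, where 64.9% of all genes were called. With a library left out, none of these called members changed direction, and the loss of the Phf19 call is given with that gene.

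Libraries share only a replicate number: deviations from the group means of same-numbered libraries correlated across genes at 0.01 (NPC and ESC), 0.01 (Phc1-KO and ESC) and -0.02 (Phc1-KO and NPC). With the replicate block, 1427 genes and 1 member, Ezh1, were called in Phc1-KO against ESC, Jarid2 had an adjusted p of 0.0636, and no other member call changed.

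Ratios, shares and the order of the genes by level per kb depend on the gene length used. With the longest transcript the Ezh1 to Ezh2 ratio averaged 0.0559 in Phc1-KO and 0.106 in ESC, and with raw counts 0.0886 in Phc1-KO and 0.169 in ESC. The other ratios and the order were not recomputed with the longest transcript. The longest transcript gave a Mtf2 share of 96.1% in Phc1-KO and 95.8% in ESC, a Phf1 share of 2.83% in Phc1-KO and 2.74% in ESC, and a PRC2.2 share of 49.3% in NPC. Raw counts gave a Mtf2 share of 97.3% in Phc1-KO, 78.6% in NPC and 97.0% in ESC, a Phf1 share of 1.71% in Phc1-KO, 8.83% in NPC and 1.66% in ESC, and a PRC2.2 share of 61.6% in Phc1-KO, 63.6% in NPC and 51.9% in ESC. Leaving out a library left each ratio or share at the value of the other library, as given above. Depth limits Phf1, Phf19 and, in NPC, E130012A19Rik, which had the fewest reads.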

Other observations

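Of 4 genes for enzymes that act on the same histone residue as PRC2, 2 were higher and 2 lower in NPC than in ESC, where 61.3% of all genes were called. Kdm6b, a lysine 27 demethylase, rose in NPC by 1.21 relative to ESC (SE 0.31, edgeR adjusted p = 0.0129), while its relative Kdm6a fell by 0.73 (SE 0.14, adjusted p = 0.00323). The acetyltransferase Crebbp rose by 0.76 (SE 0.23, adjusted p = 0.0249) and Ep300 fell by 0.48 (SE 0.17, adjusted p = 0.0450). Of 5 lysine 36 methyltransferase genes, 3 were higher in NPC than in ESC and 0 lower, where 30.4% of all genes were higher and 30.9% lower. Also 3 passed by DESeq2 and by limma-voom, and 3 had an unadjusted p under 0.05. Of all 17489 genes, DESeq2 called 10150 and limma-voom 10571 there. The 3 called by edgeR were Ash1l, up by 1.495 (SE 0.15, adjusted p = 0.000221), Whsc1l1, up by 0.68 (SE 0.18, adjusted p = 0.0131), and Whsc1, up by 0.63 (SE 0.17, adjusted p = 0.0159). Nsd1 and Setd2 had log2 differences of -0.30 and 0.24 that did not pass.

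In Phc1-KO against ESC 0 of these 9 genes passed by edgeR, against 10.7% of all genes. Over all genes 29.3% had an unadjusted p under 0.05 there. Of the 4 lysine 27 enzymes, 0 had an unadjusted p under 0.05 and 0 passed by DESeq2 or limma-voom. Of the 5 lysine 36 genes, 2 had an unadjusted p under 0.05, 2 passed by DESeq2 and 0 by limma-voom. Over all 17489 genes, 2540 passed by DESeq2 and 1820 by limma-voom there. Kdm6b was at 34.0 and 16.6 CPM in the Phc1-KO libraries and at 23.2 and 24.2 CPM in ESC, and the Phc1-KO pair lay 2.05-fold apart.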
